A study of Mus musculus with 267 samples.

Results

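PPARg, the fatty acid receptor encoded by Pparg, was followed together with 3 genes whose products work beside it in macrophages: Rxra, Nr1h3 and Ppargc1b. Every tag table row and every factor peak whose centre lay within 50 kb of the annotated start of 1 of these 4 genes was taken, of 55341 genes in the GENCODE vM21 annotation of mm10. Chromatin immunoprecipitation with sequencing (ChIP-seq) had been run on 267 samples of bone marrow-derived macrophages from female mice 8 to 12 weeks old, grown in macrophage colony-stimulating factor. Cells of the inbred strains SPRET/EiJ, BALB/cJ, PWK/PhJ, C57BL/6J and NOD/ShiLtJ, called SPRET, BALB, PWK, C57 and NOD here, were untreated (basal) or held for 24 hours with interleukin-4 (IL-4) at 20 ng/mL, and C57 cells were also taken after 1 and 6 hours. Egr2flfl macrophages, with floxed Egr2 alleles, and LyzMCreEgr2flfl macrophages, which add a Cre driven by the lysozyme M promoter, to delete Egr2 in myeloid cells, were compared in basal and 24-hour IL-4 conditions, so that the controls carried the floxed alleles as well.

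The strain tables held 41 member rows of 67742 in C57, 35 of 54022 in BALB, 43 of 68932 in NOD, 49 of 60175 in PWK and 51 of 54755 in SPRET. Their rows are windows around peaks of open chromatin (ATAC-seq) called for that strain, so a row can be held by some strains only. The C57 time course held 50 of 77955, the EGR2 time course 24 of 30675, and 5 of the 4677 rows for the Egr2 genotypes were members. The 54 peak lists held 1219 peaks near the members of 1958714 in all, of which 385 lay near Pparg, 345 near Nr1h3, 270 near Ppargc1b and 219 near Rxra. Pparg lay on chr6:115360951-115490399 (plus strand), Rxra on chr2:27676440-27762957 (plus), Nr1h3 on chr2:91184061-91202834 (minus) and Ppargc1b on chr18:61298136-61400431 (minus). Regions are named below by their distance in kb from the annotated start, negative upstream. The 5′-most Nr1h3 start belongs to a noncoding transcript and lay 51 bp from the divergent start of Acp2, whereas the 5′-most coding transcript started 7.7 kb downstream. The Nr1h3 regions at +18.9 and +19.9 kb lay at the start of the neighbouring gene Madd. Signal between these genes and their neighbours was therefore assigned by distance alone.

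PPARg is a nuclear receptor that binds fatty acid derivatives and pairs with the retinoid X receptor, the product of Rxra, to bind repeats of a short hormone response element. The liver X receptor encoded by Nr1h3 binds oxysterols, uses the same partner and turns on cholesterol efflux genes, while Ppargc1b encodes PGC-1β, a coactivator that does not bind DNA itself and drives mitochondrial gene programmes. In macrophages IL-4 acts through STAT6, and PPARg and PGC-1β are known for their part in the oxidative metabolism of alternatively activated cells. H3K27ac marks active enhancers and promoters, H3K4me3 promoters, H3K4me2 both, and RNA polymerase II (Pol II) the transcribing enzyme.

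In C57 macrophages after 24 hours of IL-4, 25 of 39088 PPARg peaks lay near the 4 genes (9 at Pparg, 8 at Ppargc1b, 5 at Nr1h3 and 3 at Rxra). Windows of 300 bases around the centres of the top scored PPARg or EGR2 peaks are shown because the factor, knockout and time course results below turn on them. They are read from GRCm38 (mm10) on the plus strand, and capitals mark a receptor element (AGGTCA, or TGACCT on the other strand), the STAT letters TTC and GAA 4 bases apart or the C/EBP letters TTGCNNAA. The site at Pparg -17.1 kb, chr6:115343707-115344006, was intergenic and was the top PPARg peak of its gene. That at Pparg +14.6 kb, chr6:115375365-115375664, lay in an intron of Pparg and was the top peak of EGR2, STAT6 and CEBPb there. The Rxra +40.1 kb site, chr2:27716433-27716732, was the top PPARg peak in an intron of Rxra. The Nr1h3 +6.0 kb site, chr2:91196685-91196984, was the top EGR2 peak of that gene, in an intron shared by Nr1h3 and Gm13783. In the last window, Pparg -15.5 kb, chr6:115345348-115345647, intergenic and picked for its letters after its values were seen, capitals mark a repeat of AGGNCA after a gap of 1 base (DR1, the arrangement known for PPARg with its partner), here read on the minus strand, at chr6:115345505-115345517.
Pparg -17.1 kb site: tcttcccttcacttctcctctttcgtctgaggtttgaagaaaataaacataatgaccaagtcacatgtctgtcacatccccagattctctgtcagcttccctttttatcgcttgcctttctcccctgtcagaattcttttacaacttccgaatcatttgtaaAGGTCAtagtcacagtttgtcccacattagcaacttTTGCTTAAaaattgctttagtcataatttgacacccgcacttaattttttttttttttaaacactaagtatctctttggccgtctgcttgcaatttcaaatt
Pparg +14.6 kb site: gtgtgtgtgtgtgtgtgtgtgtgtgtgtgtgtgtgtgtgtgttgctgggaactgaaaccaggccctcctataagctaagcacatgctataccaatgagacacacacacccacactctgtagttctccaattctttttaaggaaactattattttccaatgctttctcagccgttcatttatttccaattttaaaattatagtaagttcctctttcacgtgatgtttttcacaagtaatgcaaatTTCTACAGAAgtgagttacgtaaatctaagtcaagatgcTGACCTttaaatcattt
Rxra +40.1 kb site: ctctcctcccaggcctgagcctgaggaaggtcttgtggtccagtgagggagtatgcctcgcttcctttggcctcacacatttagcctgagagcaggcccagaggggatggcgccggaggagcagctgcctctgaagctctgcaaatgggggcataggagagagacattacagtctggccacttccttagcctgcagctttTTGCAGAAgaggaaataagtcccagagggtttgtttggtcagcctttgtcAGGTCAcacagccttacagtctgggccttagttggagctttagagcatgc
Nr1h3 +6.0 kb site: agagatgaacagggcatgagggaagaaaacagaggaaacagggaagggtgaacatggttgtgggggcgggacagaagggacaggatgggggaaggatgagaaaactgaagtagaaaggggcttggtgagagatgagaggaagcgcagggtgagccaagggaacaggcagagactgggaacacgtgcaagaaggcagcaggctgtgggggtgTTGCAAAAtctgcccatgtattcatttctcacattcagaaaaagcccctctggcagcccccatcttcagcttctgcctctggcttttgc
Pparg -15.5 kb site: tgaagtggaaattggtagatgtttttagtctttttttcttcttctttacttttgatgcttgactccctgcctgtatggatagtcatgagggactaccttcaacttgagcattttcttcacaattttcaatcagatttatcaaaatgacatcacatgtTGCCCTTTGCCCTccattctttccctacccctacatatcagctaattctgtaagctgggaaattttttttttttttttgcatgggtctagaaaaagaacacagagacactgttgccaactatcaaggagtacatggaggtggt

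Of the 25 PPARg sites near the members, 10 (40%) held the receptor element AGGTCA on either strand, against 27.8% of all 39088 PPARg peaks of the condition in windows of the same length. The DR1 repeat, copies of AGGNCA with 1 base between them, was in 2 sites (8%, against 2.43% of all peaks). The DR4 repeat, AGGNCA with 4 bases between its copies and known from liver X receptor elements, was in 0 (against 0.709%). The letters of the single element overlap those of both repeats. TTGCNNAA, the C/EBP letters, was in 6 sites (24% against 17.8%) and the STAT letters in 4 (16% against 9.77%). GCGTGGG, the EGR letters, was in 1 (4% against 3.02%) and GAGGAAGT, the PU.1 letters, in 0 (against 10.4%). These are matches of letters in small numbers of windows and describe the sequence only.

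Outside SPRET, most PPARg peaks near the members at 24 hours had no basal peak, as in the whole lists. In basal C57 macrophages 3 were called, at Pparg -17.1 kb, Nr1h3 +5.8 kb and Nr1h3 +7.7 kb, and 22 of the 25 peaks at 24 hours had no overlap with a basal peak (88%, 95% interval 68.8 to 97.5%, exact binomial). Over the whole list the share was 84%, which lies within that interval. The share was 9 of 11 in BALB (81.8%, list 78.9%), 19 of 28 in NOD (67.9%, list 74.3%) and 16 of 24 in PWK (66.7%, list 70%). SPRET had the lowest share, 4 of 15 (26.7%, interval 7.79 to 55.1%, list 38.9%), and there the other 11 overlapped a basal peak and 16 basal peaks were called. The lists differ in depth between strains and conditions, and the intervals cover counting error only. The plot of C57 peak positions shows these sites beside the 4 other factors.

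**Figure D1:**
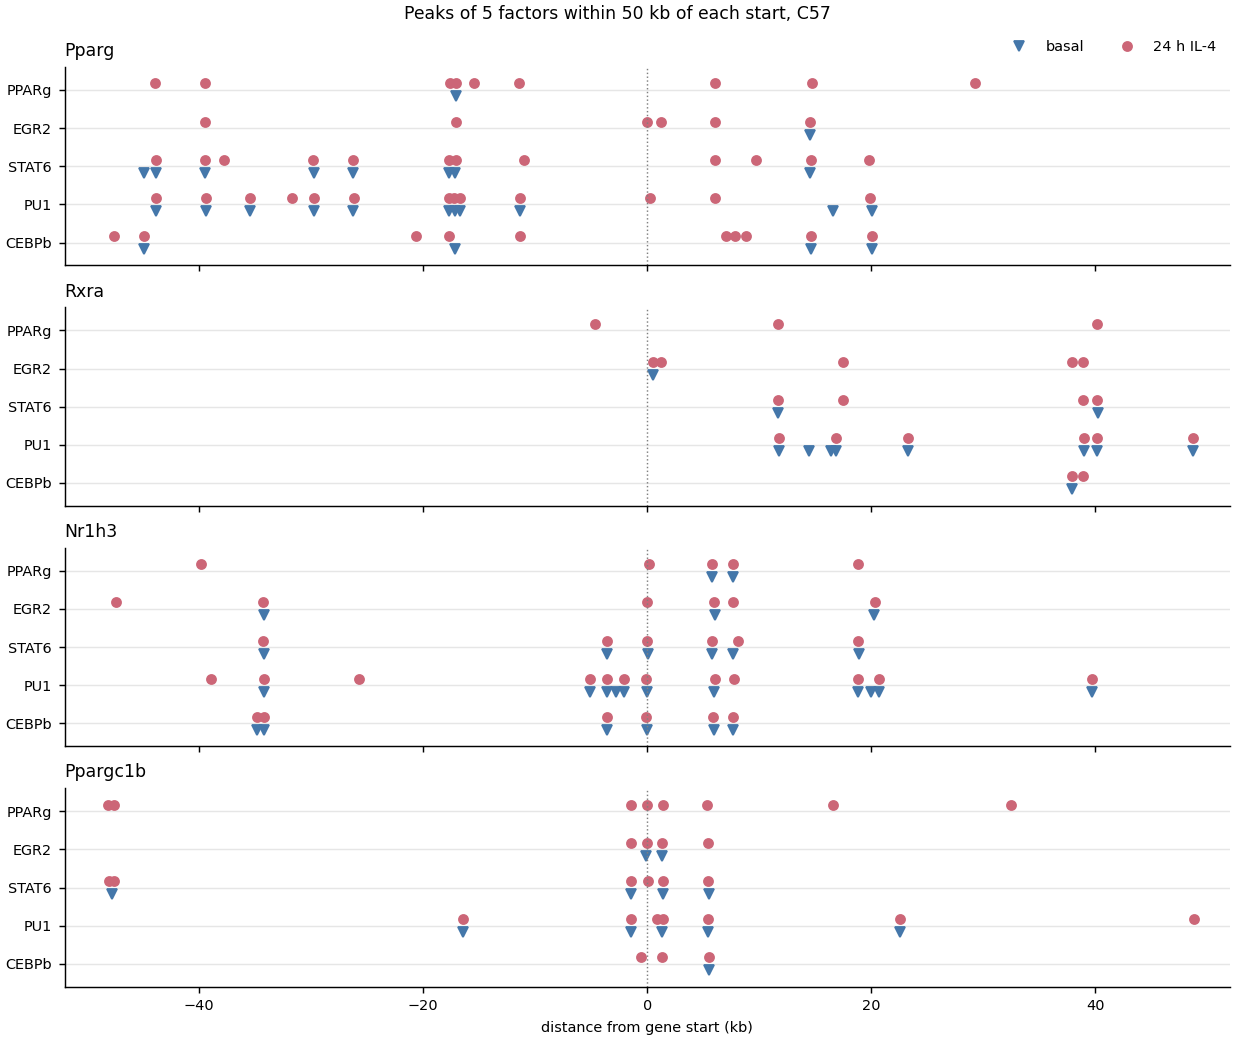
Peaks of PPARg, EGR2, STAT6, PU1 and CEBPb in C57 macrophages within 50 kb of the start of each gene, drawn by distance from the start in kb. Triangles are basal peaks and circles peaks after 24 hours of IL-4, and the PPARg line holds 3 triangles and 25 circles over the 4 genes.

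The PPARg lists and the EGR2 lists outside C57 hold another score than the IDR score of the rest, so that shares are read against their own list and not between factors or strains. In C57, 14 of 21 EGR2 peaks at 24 hours had no basal peak (66.7%, 43 to 85.4%, list 72.5%), as did 10 of 21 CEBPb peaks (47.6%, list 53.8%), 10 of 28 STAT6 peaks (35.7%, list 41.2%) and 8 of 38 PU1 peaks (21.1%, list 18.9%). In NOD 1 of 16 EGR2 peaks had no basal peak (6.25%, list 11.1%). In the time course lists, the EGR2 sites of Pparg at +6.1 kb and -39.5 kb were listed from 1 hour. Those at the start, +1.2 kb and -17.1 kb were listed at 24 hours only. A listing does not by itself measure a rise. The tags at +6.1 kb, given below, overlapped those of basal at 1 hour. The EGR2 site at Rxra +17.5 kb was listed from 6 hours and the STAT6 site at Pparg -11.0 kb from 1 hour.

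Of the 25 C57 PPARg sites at 24 hours, 17 overlapped a STAT6 peak (68%, against 50.6% of all PPARg peaks), 14 a PU1 peak (56%, against 61.3%), 11 an EGR2 peak (44%, against 31.3%) and 7 a CEBPb peak (28%, against 38.1%). A PPARg peak was also called in NOD at 20 of them (80%, against 62.3%), in PWK at 15 (60%, against 49.3%), in SPRET at 13 (52%, against 30.6%) and in BALB at 10 (40%, against 43%). A group of 6 sites had a PPARg peak in all 5 strains: Pparg -17.1 and +14.7 kb, Nr1h3 +5.8 and +7.7 kb, and Ppargc1b -48.1 and -47.6 kb. The top PPARg peaks were at Pparg -17.1 kb, Rxra +40.1 kb, Nr1h3 +7.7 kb and Ppargc1b -47.6 kb. The Rxra +40.1 kb peak was shared by 2 of the other strains and the other three by all 4. The top EGR2 peaks lay at Pparg +14.6 kb, the Rxra start, Nr1h3 +6.0 kb and the Ppargc1b start. The top PU1 peaks, the factor that marks myeloid enhancers, lay at Pparg -29.8 kb, Rxra +40.2 kb, Nr1h3 +18.8 kb and Ppargc1b +5.4 kb. The top STAT6 peaks lay at Pparg +14.6 kb, Rxra +11.7 kb, Nr1h3 +5.8 kb and Ppargc1b -47.6 kb, and the top CEBPb peaks at Pparg +14.6 kb, Rxra +37.9 kb, Nr1h3 +7.7 kb and Ppargc1b +5.5 kb.

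Regions whose centres matched within 500 bp in all 5 strain tables numbered 29462, of which 22 lay near the members (Rxra 8, Nr1h3 6, Ppargc1b 5 and Pparg 3). Each is 1000 bp wide, and a level is in normalized tags, the reads in a region scaled to 10000000 reads per library. The kind of region differs between genes, so that gene means describe the regions held and do not rank the genes. Those near Nr1h3 include the starts of Acp2 and Madd but not the coding Nr1h3 start, and those of Rxra are mostly intronic. Averaged over regions and libraries, H3K27ac was highest at Nr1h3, with a mean of 258 normalized tags and regions from 69.4 to 389.5. Pparg followed at 149 (116.4 to 206.8), Ppargc1b at 132 (7.88 to 357) and Rxra at 120.1 (13.7 to 315.1), and the ranges of all 4 genes overlapped. Pol II had Nr1h3 first at 149 and Rxra last at 34.8, with Ppargc1b at 67.7 and Pparg at 56.4 between them. H3K4me3, a promoter mark, had the order Nr1h3 284.5 (13.2 to 587.7), Ppargc1b 222 (5.83 to 557.1), Pparg 177 (3.40 to 518.7) and Rxra 22.9 (1.77 to 146.7).

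Library totals ran from 4691644 to 29050468 tags (median 12936233), so that 1 normalized tag stood for 0.469 to 2.91 reads. The share of H3K27ac tags inside the strain table rows was 48.4 to 65.4% in basal libraries and 28.7 to 57.1% after 24 hours. The median log2 change of H3K27ac over all matched regions was -0.31, and each change below was also computed after scaling each library to the median ratio over regions, which set that median to 0.01. For Pol II the median was 0.02 before scaling. A row at a gene's start means open chromatin and does not by itself show H3K27ac. Of 8 macrophage marker genes, 7 had a row at their start in all 5 strains, with H3K27ac means of 13.7 to 961.6 over the list. Of 3 T cell markers 0 had one. Of 4 neutrophil genes S100a8 had one, with strain means of 38.8 to 184.7 normalized tags, and the other 3 had none in any strain. Of 3 dendritic cell genes Zbtb46 had one in all 5 strains, with means of 3.02 to 29.5. Of the B cell, mast cell and basophil, fibroblast and adipocyte genes 0 had one in all 5 strains. Where a strain held a row for these, the H3K27ac mean was at most 4.85. Their part in the results was not tested. In bulk chromatin fewer cells of a type and less signal per cell cannot be told apart. The p-values below measure the spread between replicate samples, mostly 2 a group, which the labels call biological replicates.

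**Figure D2:**
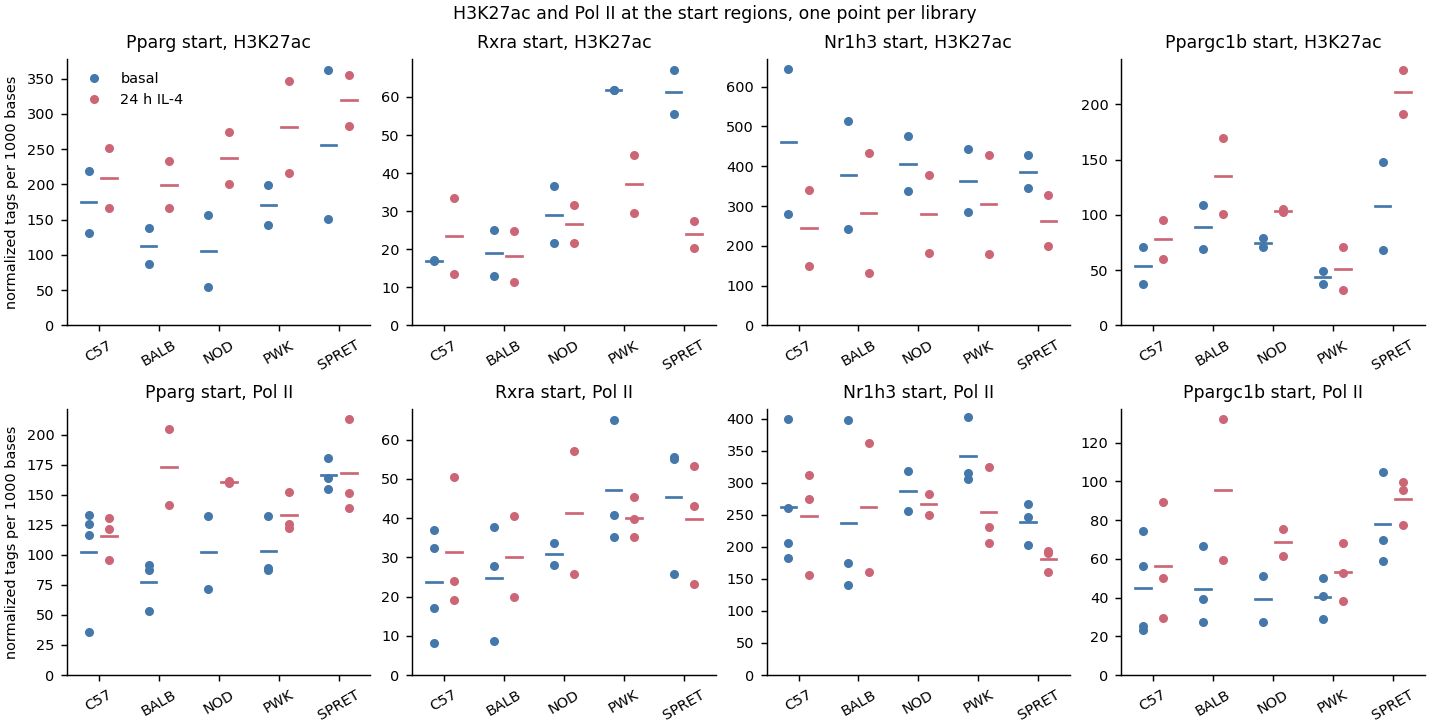
Normalized tags of H3K27ac (upper panels) and Pol II (lower panels) at the start region of each of the 4 genes in the 5 strains, basal and after 24 hours of IL-4, 1 point per library with bars at the group means. At the Pparg start the 24-hour mean exceeded the basal mean in all 5 strains for both H3K27ac and Pol II.

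Before scaling, limma called H3K27ac higher after IL-4 at the starts of Pparg and Ppargc1b. It called H3K27ac lower at 6 Rxra and Nr1h3 regions away from the annotated starts of these genes, and at 1 of Ppargc1b. Among the 6, Nr1h3 +18.9 and +19.9 kb lay at the start of Madd. The calls at both starts were lost without some single libraries, and edgeR also lost that at the Ppargc1b start (limma adjusted p = 0.0495). Scaling removed the calls at Rxra +14.5 kb and Ppargc1b +5.5 kb. Averaged over the strains, 2 of 22 member regions rose and 7 fell at an adjusted p under 0.05 (limma, Benjamini-Hochberg over all 29462 regions). Over all matched regions 7.29% rose and 28.2% fell, both close to the member shares. Under median-ratio scaling 4 regions rose and 5 fell, against 14% and 13.1% of all regions. With replicate number as a block, which the H3K27ac libraries allowed (their same-numbered samples deviated together), 2 rose and 14 fell, against 11.5% and 45.5% of all regions.

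At the Pparg start, H3K27ac in basal and then 24-hour libraries was 132 and 219.6, then 252 and 167 normalized tags in C57, and 86.7 and 138, then 233 and 166 in BALB. It was 54.03 and 157, then 274 and 200.4 in NOD, and 142 and 199.7, then 346 and 217 in PWK. In SPRET it was 150.5 and 362, then 355 and 283. The 24-hour mean was higher in 5 of 5 strains, and basal and 24-hour libraries did not overlap in BALB, NOD and PWK. The mean change was 0.72 ± 0.23 (log2, SE; 1.64-fold; limma adjusted p = 0.0208), 1.05 after median-ratio scaling. The call was lost without NOD basal replicate 1 (0.56, adjusted p = 0.0561), SPRET basal replicate 1 (0.59, 0.061), all BALB libraries (0.68, 0.0513) or all NOD libraries (0.56, 0.0873). Pol II there had a lowest, median and highest value of 35.6, 116.4 and 180.4 in the 15 basal libraries and 95.6, 141 and 213 in the 13 libraries at 24 hours, with means higher in 5 of 5 strains and no overlap in 2. Its change was 0.52 ± 0.17 (1.43-fold, adjusted p = 0.040, limma), and this call was lost in 18 of 39 alternatives, where the adjusted p reached 0.234. These left out BALB, NOD or PWK, or 1 library: BALB basal replicate 3 or 24-hour replicate 1, C57 24-hour replicate 1 or 3, NOD basal replicate 1 or 24-hour replicate 1 or 2, PWK basal replicate 1 or 3 or 24-hour replicate 1 or 2, or SPRET basal replicate 1 or 3 or 24-hour replicate 1, or used edgeR.

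At the Ppargc1b start, the promoter region of the coactivator gene, H3K27ac had a lowest, median and highest value of 37.8, 69.8 and 148 in 10 basal libraries and 32.3, 102 and 231 in 10 libraries at 24 hours. The means were higher in 5 of 5 strains, but the libraries overlapped in 3 of them. The change was 0.56 ± 0.22 (1.47-fold, limma adjusted p = 0.0495), at the edge of the threshold. The change was 0.89 with scaling (adjusted p = 0.0031), and the block kept the call (0.00064), while edgeR lost it (0.55, adjusted p = 0.0541). The call was lost (adjusted p 0.055 to 0.18) without any 1 of 14 libraries or of the strains C57, BALB, NOD and SPRET, and was kept without PWK or without any 1 of BALB basal replicate 1, BALB 24-hour replicate 2, C57 basal replicate 1, C57 24-hour replicate 2, PWK 24-hour replicate 1 and SPRET basal replicate 2. Pol II there was 23.1, 50.4 and 105.1 in basal and 29.5, 68.4 and 132 in 24-hour libraries, a change of 0.59 ± 0.21 (limma adjusted p = 0.057, and 0.013 with scaling and 0.0036 under the block). The 4 other Ppargc1b regions had Pol II changes of 0.60 at -1.4 kb, 0.44 at -47.7 kb, 0.43 at +1.4 kb and 0.44 at +5.5 kb, none past the threshold (adjusted p 0.11 to 0.16) although each mean was higher in 5 of 5 strains. Under the block those at +1.4 kb (adjusted p = 0.013) and -47.7 kb (0.019) passed.

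The Ppargc1b -47.7 kb region had the highest H3K27ac of the gene away from the start, at a lowest, median and highest of 154, 357 and 459 in basal and 226, 373 and 733 in 24-hour libraries. Its change of 0.31 (adjusted p = 0.29) passed only after scaling (0.65, 0.0054), as did that of +1.4 kb (0.13, adjusted p = 0.64, then 0.47, 0.039). At +5.5 kb, H3K27ac went from 18.9, 44.2 and 69.1 to 15.8, 26.1 and 44.1. It fell in all 5 strain means, by 0.66 ± 0.19 on the log2 scale (adjusted p = 0.011), a call that scaling (-0.34, 0.29) and leaving out NOD (0.0703) removed.

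**Figure D3:**
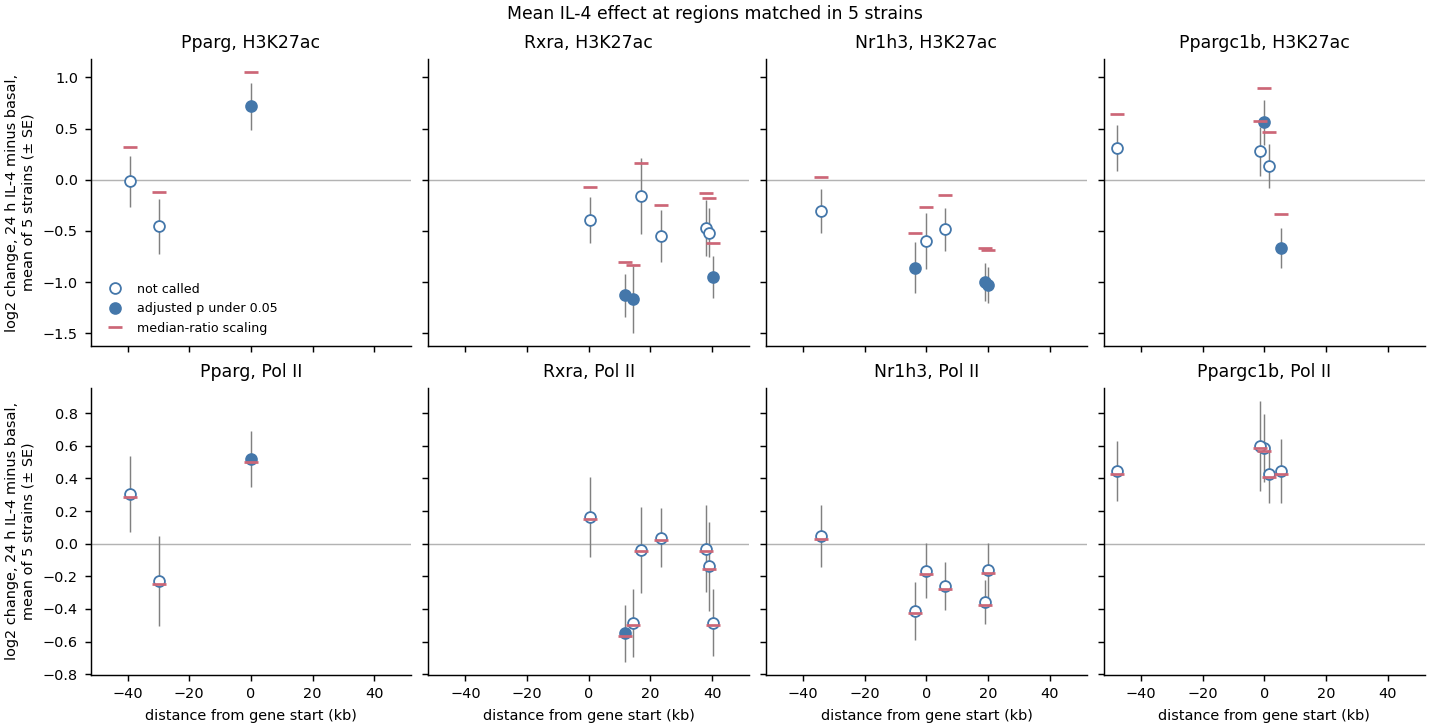
Log2 change of H3K27ac (upper panels) and Pol II (lower panels) after 24 hours of IL-4, averaged over the 5 strains, against distance in kb from each gene's start for the 22 matched regions, with standard errors. Filled points had an adjusted p under 0.05 and red dashes give the change after median-ratio scaling, which lie above the H3K27ac points.

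Rxra fell at 3 regions inside the gene and not past the threshold at its start. At +11.8 kb, the region of its top STAT6 peak, H3K27ac was 43.4, 100.3 and 192 (lowest, median, highest) in basal and 20.4, 49.0 and 79.7 in 24-hour libraries, with no overlap in any of the 5 strains. It fell by 1.13 ± 0.21 on the log2 scale (2.19 times lower, limma adjusted p = 0.00045; -0.80 and 0.021 with scaling), and the call stood in each alternative run. Pol II fell there too, from 11.3, 24.6 and 37.4 to 4.76, 15.9 and 31.4, by 0.55 ± 0.17 (1.47 times lower, adjusted p = 0.028), a call lost in 8 of 40 alternatives: without any 1 strain (-0.62 to -0.48), BALB 24-hour replicate 2 (-0.42), NOD 24-hour replicate 1 (-0.46) or NOD basal replicate 2 (-0.54). H3K27ac at +40.2 kb, next to the top PPARg peak printed above, went from 84, 235 and 404 to 41.9, 139.8 and 214 and fell by 0.95 ± 0.20 (1.94 times lower, adjusted p = 0.0013), with no overlap in 4 strains.

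At Rxra +14.5 kb H3K27ac went from 42.1, 109 and 239 to 16.1, 39.5 and 141 and fell by 1.17 ± 0.33 (2.25 times lower, adjusted p = 0.0089), but not past the threshold with scaling (-0.84, 0.13). The region with the highest H3K27ac of the gene, +37.9 kb, ran from 52.8 over 453 to 635 in basal and from 41.5 over 249 to 509 in 24-hour libraries, a change of -0.47 (adjusted p = 0.19, and 0.0063 under the block). The changes at +16.9, +23.3 and +39.0 kb were -0.16, -0.55 and -0.52 (adjusted p 0.094 to 0.76), of which the block called +23.3 and +39.0 kb lower. At the Rxra start itself H3K27ac was low, at 13.1, 30.8 and 67.2 in basal and 11.4, 26.1 and 44.9 in 24-hour libraries, a change of -0.39 (adjusted p = 0.18, and 0.038 under the block). Its Pol II change of 0.16 turned to -0.04 under the block. The start did lose H3K4me3, from 125, 174 and 235 to 83.1, 116 and 155, lower in 5 of 5 strains without overlap in 4, by 0.61 ± 0.13 (adjusted p = 0.0021; -0.44 and 0.0079 with scaling), and all 32 alternatives kept the call.

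At Nr1h3 the regions that fell furthest lay by the Madd start. H3K27ac at +18.9 kb was 139, 274 and 322 in basal and 90.8, 123 and 209 in 24-hour libraries, and at +19.9 kb 216, 379 and 474 and then 113, 168 and 316. Neither region overlapped between conditions in any of the 5 strains. They fell by 1.00 ± 0.18 (2.00 times lower, adjusted p = 0.00035, limma) and 1.03 ± 0.18 (2.04 times lower, 0.00022), by 0.66 and 0.69 with scaling. Upstream, on the Acp2 side, the -3.6 kb region had the highest H3K27ac of the gene, at 331, 473 and 655 and then 133, 291 and 441. It fell by 0.86 ± 0.25 (1.81 times lower, adjusted p = 0.011; -0.52 and 0.037 with scaling), but not past the threshold without the C57 libraries (0.0543).

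The annotated Nr1h3 start had H3K27ac of 242, 386 and 644 in basal and 132, 264 and 433 in 24-hour libraries. The means were lower in 5 of 5 strains, with no overlap in 1, and the change of -0.60 did not pass (adjusted p = 0.091, and 0.00054 under the block). At +5.9 kb, beside the printed EGR2 site, H3K27ac was 203, 322 and 427 and then 103, 249.9 and 371, a change of -0.49 (adjusted p = 0.078, and 0.0049 under the block). Pol II changes were -0.17 at the start (adjusted p = 0.62) and -0.36 at +18.9 kb (0.074), and the block called both lower (0.028 and 0.0019).

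Over the 4 genes Pol II rose at 1 and fell at 1 of the 22 regions, against 7.5% and 7.2% of all regions. Under the block 4 rose and 6 fell, against 10.9% and 16.3%. The called count was 0 without NOD 24-hour replicate 1, all NOD or all PWK libraries. H3K27ac at the remaining Pparg regions was 56.4, 113 and 231, then 60.8, 118 and 171 at -39.3 kb (change -0.02, adjusted p = 0.97). At -29.9 kb, where PU1 had its top peak, it was 55.1, 139 and 248, then 69.6, 85.7 and 126 (-0.45, adjusted p = 0.19, and 0.0058 under the block). A test of whether the IL-4 change differed between strains called 0 of 29462 regions for either mark (limma, with 368 and 520 at an unadjusted p under 0.05). Under the block it called 1.86% for H3K27ac and 0.0305% for Pol II, with 0 member regions.

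H3K4me2 fell at 19 of 22 member regions, against 72.2% of all regions (1.76% rose), with a median change of -0.53 over all regions. After scaling 1 call was left, the Ppargc1b start (-0.45, adjusted p = 0.027), where the level went from 69.1, 119.5 and 193 to 43.3, 59.1 and 113. H3K4me3 fell at 3 regions, the Rxra start and Nr1h3 +18.9 and +19.9 kb, against 10.0% of all regions lower and 3.98% higher (median change -0.10). The pair by Madd changed by -0.35 (adjusted p = 0.043) and -0.36 (0.012), both lost with scaling. Without the C57 libraries 1 of the 3 calls was left, at the Rxra start. The +18.9 kb call was kept without any 1 of C57 24-hour replicate 2, NOD basal and 24-hour replicate 1, PWK basal replicate 1, PWK 24-hour replicate 2 and SPRET 24-hour replicate 1, and lost without each of the other libraries (-0.38 to -0.26). At the other starts H3K4me3 changed by -0.08 (Pparg), -0.00 (Ppargc1b) and -0.20 (Nr1h3, adjusted p = 0.083). The Pparg start held H3K4me3 of 359, 524 and 834 in basal and 302, 458 and 797 in 24-hour libraries, so the rise of H3K27ac there went with no detected change of H3K4me3.

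Within single strains limma without the replicate block called 0 member regions for H3K27ac in any of the 5 tables (background at most 1.6% higher and 0.653% lower, both in BALB). At an unadjusted p under 0.05 there were 7 in C57, 2 in BALB, 7 in NOD, 3 in PWK and 7 in SPRET, edgeR called 1 in SPRET, and DESeq2 2 in C57 and 1 in SPRET. With the block, calls were 2 higher and 14 lower in C57 (background 8.47% and 29.6%), 4 and 13 in NOD (6.47% and 13.5%), then 1 and 2 in PWK (4.57% and 4.81%). For SPRET they were 2 and 2 (4.32% and 2.71%). BALB had 0 (3.61% and 4.06%). Of the 9 higher calls, 7 were in the Pparg neighbourhood, 1 at the Ppargc1b start and 1 at Rxra +46.4 kb. In C57 the Rxra +46.4 kb row rested on open chromatin called at 24 hours only. A fold rule, a 2.5-fold difference of group means plus 1 where either mean reached 16 normalized tags (8 for Pol II), was applied to each mark alone, gives no error and is a description. It is looser than the study's criterion, which asked for that fold in both marks. For H3K27ac it took 0 higher and 5 lower rows in C57 (background 3.46% and 7.55%), 1 and 0 in BALB (2.84% and 5.13%), 2 and 2 in NOD (3.24% and 5.14%), then 1 and 2 in PWK (3.1% and 3.01%). For SPRET there was 1 of each (2.64% and 0.939%). All 5 higher rows belonged to Pparg. The lower rows were Rxra +14.5 kb (3.19 times lower) and Nr1h3 +18.9, +19.9, -2.0 and -2.8 kb (3.07, 3.05, 2.69 and 2.60 times) in C57, Rxra +11.8 and +14.5 kb in NOD, Rxra +11.8 and +14.9 kb in PWK and the Rxra start (2.51 times) in SPRET. The C57 windows at Nr1h3 -2.0 and -2.8 kb overlap in part. These rows, and Rxra +14.9 kb in PWK, rested on open chromatin called in basal macrophages only, which favours a fall. The C57 row at Nr1h3 +19.9 kb rested on a peak called after IL-4 only.

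Of the 5 higher rows 3 were an upstream region 11.1 or 11.2 kb from the Pparg start, which the BALB, NOD and SPRET tables held and the C57 and PWK strain tables did not. It went from 30.1 and 29.8 to 124 and 47.6 normalized tags in BALB (2.81-fold), from 67.3 and 46.8 to 259.7 and 113 in NOD (3.22-fold), and from 59.0 and 72.4 to 288 and 126 in SPRET (3.12-fold). In each the 2 libraries at 24 hours lay above the 2 basal ones, yet also far apart from each other. The limma adjusted p was 0.36, 0.3 and 0.081, and under the block the NOD (1.09e-05) and SPRET (0.00035) differences passed, as did BALB with scaling (0.037). Pol II at this region went from 12.1, 8.90 and 6.56 to 38.4 and 52.4 in BALB (4.55-fold) and from 17.5 and 12.3 to 72.4 and 68.2 in NOD (4.48-fold), without overlap. In SPRET it went from 18.4, 8.38 and 21.1 to 59.2, 33.2 and 17.6, which overlapped.

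The other 2 higher rows lay at Pparg +6.1 kb, within the gene. H3K27ac there went from 13.2 and 23.8 to 45.2 and 26.7 in BALB, from 7.48 and 27.8 to 46.3 and 67.0 in NOD (3.09-fold) and from 6.87 and 25.1 to 37.04 and 54.4 in PWK (2.75-fold). The libraries did not overlap in these 3 strains, and the block called NOD (1.86, adjusted p = 5.53e-05) and PWK (1.68, 0.0014). Pol II there went from 5.75, 16.6 and 17.5 to 29.8 and 61.1 in BALB (3.25-fold), from 5.19 and 24.0 to 42.4 and 93.8 in NOD (4.44-fold) and from 8.46, 18.9 and 20.5 to 66.9, 47.4 and 47.0 in PWK (3.23-fold). In PWK the +14.9 kb region followed, with Pol II of 19.8, 19.6 and 15.9 and then 69.0, 77.6 and 44.5 (3.33-fold). Both marks passed the fold together at the upstream region in BALB and NOD and at +6.1 kb in NOD and PWK, against 1.48% of rows in BALB, 1.29% in NOD and 1.32% in PWK, and at 0 member rows in C57 (0.936%) and SPRET (0.873%). The C57 strain table held neither region, so its count does not measure them. The PWK +6.1 kb row rested on open chromatin called at 24 hours only, which favours a rise there. The upstream row of SPRET rested on peaks of both conditions. The C57 time course, to which the fold rule was not applied, held -11.1 kb through open chromatin called at 1 hour only. There H3K27ac was 41.4 and 42.1 in basal and 167 and 148 at 24 hours. Pol II was 21.8, 5.62, 11.8 and 13.2, then 65.4, 27.3 and 26.9. Both fell together at 0 member rows in any strain (1.14% of rows in C57, 0.507% in BALB, 0.807% in NOD, 0.548% in PWK and 0.221% in SPRET). Counting all members, the fold rule took 4 Pol II rows higher in BALB (background 5.91%), 3 in NOD (2.35%), 2 in PWK (2.66%), 1 in SPRET (1.54%) and 0 in C57 (1.57%). It took 0 rows lower in any strain (background 0.929% in BALB, 1.25% in NOD, 0.932% in PWK, 0.805% in SPRET and 1.66% in C57). Those outside Pparg were Ppargc1b +48.9 kb in BALB and NOD, the Ppargc1b start in BALB (3.24-fold) and Ppargc1b +16.8 kb in SPRET (2.76-fold).

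**Figure D4:**
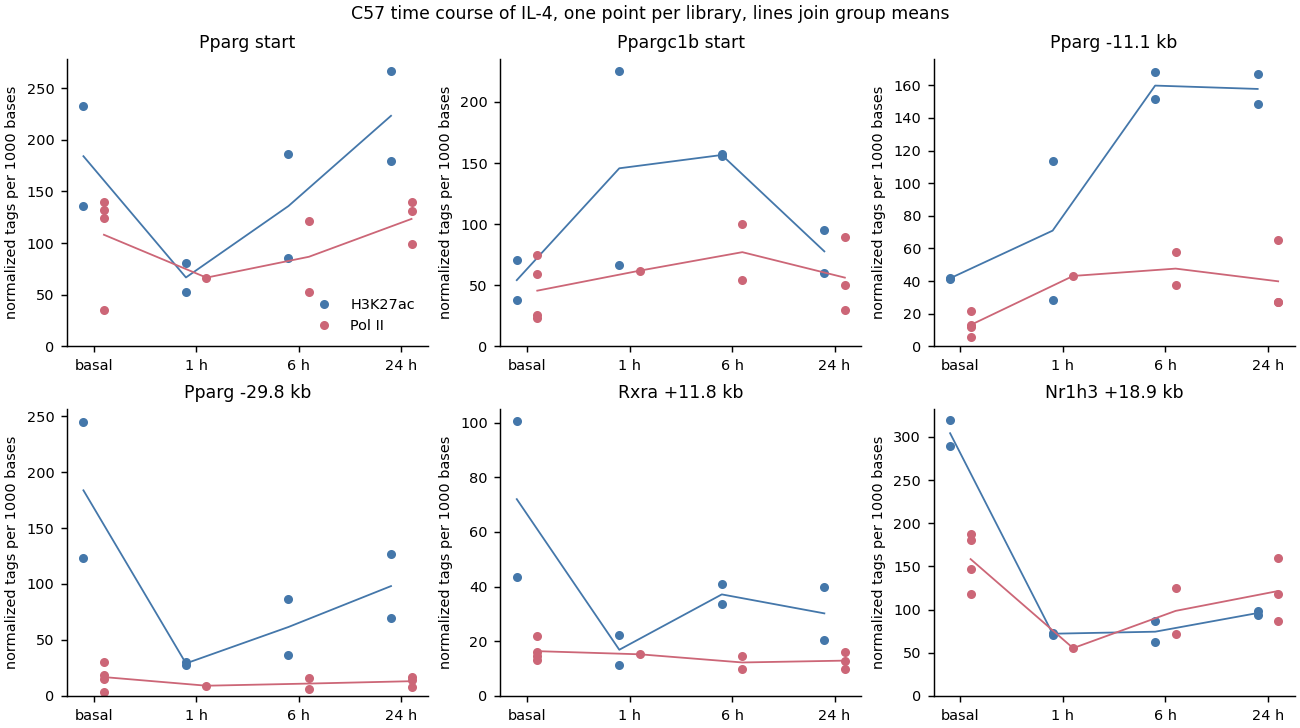
Normalized tags of H3K27ac and Pol II in C57 macrophages at basal and after 1, 6 and 24 hours of IL-4 for 6 member regions, 1 point per library with lines through the group means. The Pparg -11.1 kb H3K27ac points at 6 and 24 hours lie between 148 and 168, above both basal points near 42.

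The C57 time course, whose basal and 24-hour libraries are those of the C57 strain table, added 1 and 6 hours. The Pparg -11.1 kb region, present in this table, had H3K27ac of 41.4 and 42.1 in basal, 114 and 28.2 at 1 hour, 152 and 168 at 6 hours and 167 and 148 at 24 hours. The libraries at 6 and 24 hours did not overlap the basal ones, while those at 1 hour straddled them. The changes were 1.91 ± 0.61 at 6 hours (limma adjusted p = 0.077) and 1.89 at 24 hours (0.13), and both passed with scaling (2.11, 0.021, and 2.2, 0.026). Pol II at Pparg -11.4 kb was 24.3, 8.02, 12.9 and 14.2 in basal, 42.1 in the only 1-hour library, 46.0 and 63.9 at 6 hours and 74.7, 30.5 and 32.1 at 24 hours. All later libraries lay above the basal ones, with changes of 1.90 at 6 hours (adjusted p = 0.098) and 1.53 at 24 hours (0.13). The -11.1 kb row rested on open chromatin called at 1 hour only, and the -11.4 kb row on that at 6 hours only. Neither peak was called in basal macrophages, so the selection of these rows favoured a rise.

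Other Pparg regions had their lowest mean at 1 hour, except +19.9 kb (82.7 at 1 hour and 76.3 at 6 hours). H3K27ac at -29.8 kb was 123 and 245 in basal, 27.8 and 30.3 at 1 hour, 36.2 and 87.0 at 6 hours and 69.6 and 127 at 24 hours, a 1-hour change of -2.54 (adjusted p = 0.020), lost without basal replicate 2 (-2.04). The Pparg start went from 136 and 232 to 80.4 and 53.0 at 1 hour, 85.5 and 186 at 6 hours and 267 and 179.8 at 24 hours, with a 1-hour change of -1.43 (adjusted p = 0.109). The Ppargc1b start had its highest values at 1 and 6 hours, going from 70.6 and 37.8 to 225 and 66.4 at 1 hour, 156 and 158 at 6 hours and 95.1 and 60.4 at 24 hours. The 1-hour libraries overlapped the basal ones, those at 6 hours did not. Its changes of 1.23 at 1 hour (adjusted p = 0.18) and 1.58 at 6 hours (0.15) passed only with scaling (2.03, 0.038, and 1.79, 0.044).

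At Rxra +11.8 kb H3K27ac was 43.4 and 101 in basal, 22.4 and 11.4 at 1 hour, 40.8 and 33.5 at 6 hours and 20.4 and 40.0 at 24 hours, a 1-hour change of -1.98 (adjusted p = 0.046). Nr1h3 +18.9 kb was at 289 and 319 in basal and no higher than 97.8 afterwards, at 71.1 and 73.0 after 1 hour, 62.4 and 86.4 after 6 hours and 94.2 and 97.8 after 24 hours. Its changes were -2.06 at 1 hour (adjusted p = 0.027) and -2.03 at 6 hours (0.032), and every later library lay below the basal ones. The coding start of Nr1h3, at +7.8 kb, had 430.1 and 173 in basal, 93.5 and 51.98 at 1 hour, 129 and 321 at 6 hours and 274 and 110.3 at 24 hours. Only its 1-hour libraries lay clear of the basal ones.

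In all, 8 of 50 member rows fell at 1 hour and 0 rose, against 8.36% and 1.37% of all rows. The others were Nr1h3 +5.9 kb (-2.01, adjusted p = 0.045), +19.5 kb (-2.09, 0.026) and +19.9 kb (-1.96, 0.034) and Pparg -39.4 kb (-2.09, 0.034) and -38.9 kb (-2.18, 0.029). The windows at Pparg -39.4 and -38.9 kb overlap, and that at Nr1h3 +19.5 kb overlaps those at +18.9 and +19.9 kb. These rows share tags and are not separate loci. The median change over all rows at 1 hour was -0.63, and with scaling each of the 8 calls was lost and the rise at the Ppargc1b start was called. The count was 0 without basal replicate 2, 4 without basal replicate 1, 1 without either 6-hour library, 5 without 24-hour replicate 1 and 20 without 1-hour replicate 1. At 6 hours 1 row was called, Nr1h3 +18.9 kb, which scaling kept (-1.82, 0.026), and at 24 hours 0 (background 1.13% higher; 10 rows at an unadjusted p under 0.05, DESeq2 calling 3 and edgeR 0). Without either 1-hour library 6 rows were called at 6 and at 24 hours, and without any 1 of the basal or 6-hour libraries 0 at 6 hours. For Pol II 0 member rows were called at 6 or 24 hours (background 0.422% higher and 0.139% lower, and 0.502% and 0.182%; 4 and 3 rows at an unadjusted p under 0.05, DESeq2 calling 2 and 1 and edgeR 0). Without basal replicate 1 there were 3 and 2. With 1 library, 1 hour had no test.

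EGR2 values at the Pparg and Ppargc1b sites below were higher after 24 hours of IL-4, but limma called 0 of 30675 EGR2 sites at any time (1085, 1169 and 1038 at an unadjusted p under 0.05 at 1, 6 and 24 hours, and at most 2 called with scaling). Sites were 200 to 799 bp wide, and levels here are normalized tags per site. The top member site, Pparg +14.5 kb, shown above, had 74.9 and 67.2 in basal, 47.0 and 175 at 1 hour, 152 and 181 at 6 hours and 135 and 164 at 24 hours, with no overlap of the last 2 times with basal. The Ppargc1b start had 55.7 and 90.0 in basal, 44.3 and 50.1 at 1 hour, 101 and 45.8 at 6 hours and 213 and 149 at 24 hours (1.32 ± 0.67, adjusted p = 0.838). The Pparg +6.1 kb site, with its 6-hour and 24-hour libraries clear of the basal ones, went from 27.2 and 21.5 over 18.97 and 28.9 and 54.1 and 54.5 to 108 and 74.9.

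Sites with under 20 normalized tags in basal macrophages included Pparg +1.2 kb, with 8.43 and 6.71 normalized tags and then 50.7 and 27.8 at 24 hours (log2 change 2.18), and Rxra +17.5 kb, with 17.3 and 6.71 and then 71.8 and 37.4 (log2 change 2.15). The Pparg start held 12.2 and 39.0, then 57.5 and 52.8. The top sites of the receptor partners overlapped with basal at 24 hours at Rxra and not at Nr1h3. The Rxra start had 48.7 and 77.9 in basal and 131 and 60.5 at 24 hours, and Nr1h3 +6.0 kb 72.1 and 87.3 and then 107 and 89.3. Both differences turned negative with scaling (-0.12 and -0.35), which removes the median change of 0.66 over all EGR2 sites. A gain shared by most sites is removed with it, so these signs do not show a loss of EGR2. Without 24-hour replicate 1 the Rxra start also turned, to -0.03.

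**Figure D5:**
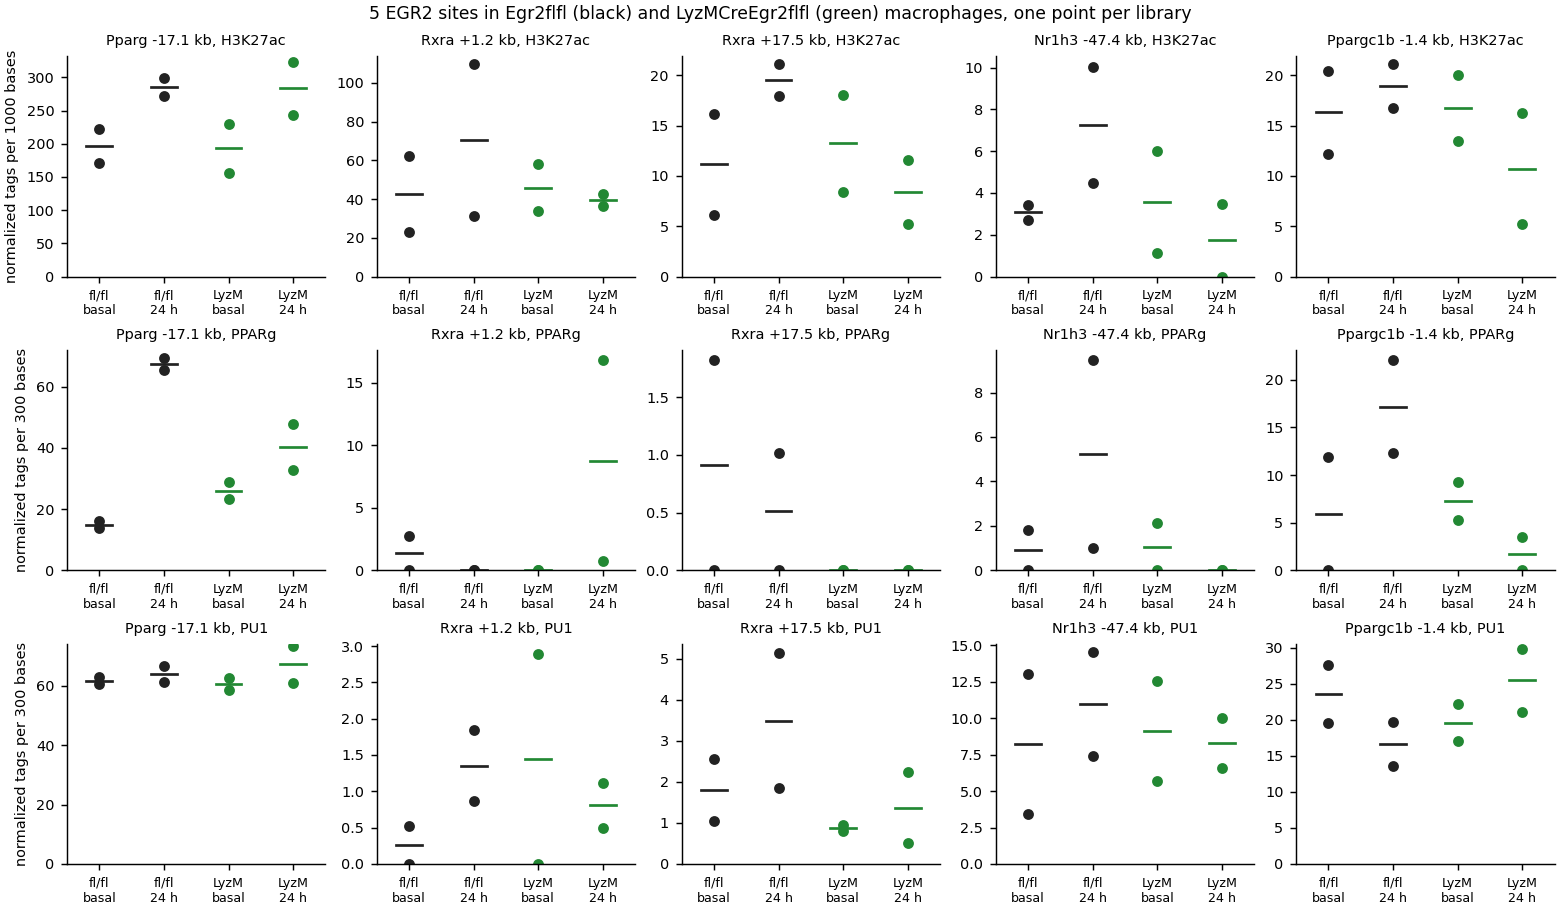
Normalized tags of H3K27ac, PPARg and PU1 at the 5 member EGR2 sites in Egr2flfl (black) and LyzMCreEgr2flfl (green) macrophages, basal and after 24 hours of IL-4, 1 point per library. At Pparg -17.1 kb the H3K27ac points of both genotypes at 24 hours lie between 244 and 324.

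In the Egr2 genotypes, the row nearest to the deleted gene lay 3741 bp from the Egr2 start and held H3K27ac of 50.3 and 38.0 in basal and 153 and 198 at 24 hours in Egr2flfl, and 38.1 and 27.5, then 161 and 143 in LyzMCreEgr2flfl. H3K27ac beside the gene does not measure the deletion. The table holds sites of EGR2 peaks induced at 24 hours of IL-4, of which 5 were near the members. Members and background alike were thus selected for EGR2 gain. H3K27ac at Pparg -17.1 kb was 170.4 and 222 in basal and 271 and 299.9 at 24 hours in Egr2flfl, and 156 and 230.4, then 244 and 324 in LyzMCreEgr2flfl. The genotypes overlapped in each condition, with a difference of -0.02 at 24 hours (limma adjusted p = 0.96). PU1 at this site lay between 60.5 and 66.8 in Egr2flfl and between 58.5 and 73.5 in LyzMCreEgr2flfl (0.07, 0.86). The H3K27ac change with IL-4 there was 0.55 in Egr2flfl (adjusted p = 0.091) and 0.56 in LyzMCreEgr2flfl (0.11). Only the replicate block called these higher. In the strain tables H3K27ac changed by -0.26 at Pparg -17.2 kb in BALB (0.94) and -0.28 at -17.7 kb in C57 (0.66). With scaling these were 0.07 and 0.06, so a rise was not detected in these strains. Other strains are not given here.

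PPARg binding at Pparg -17.1 kb, its own gene's top site, was 13.7 and 16.2 in basal and 65.5 and 69.3 at 24 hours in Egr2flfl, and 28.8 and 23.2, then 32.7 and 47.8 in LyzMCreEgr2flfl. At 24 hours the genotypes did not overlap, with a difference of -0.76 ± 0.55 (limma adjusted p = 0.51). It turned to 0.25 with scaling, which removes the median of -1.28 over all sites. Those sites were all selected for EGR2 gain, so scaling also removes a difference that most of them share. The turned sign thus does not show that PPARg was kept. The difference between genotypes in the IL-4 response was -1.51 (adjusted p = 0.47). CEBPb there was 41.7 and 37.4 in Egr2flfl and 12.9 and 12.9 in LyzMCreEgr2flfl at 24 hours (-1.55, adjusted p = 0.19, against a median of -1.14). PPARg at the Ppargc1b -1.4 kb site was low, at 11.8 and 0 in basal and 12.3 and 22.1 at 24 hours in Egr2flfl, and at 5.32 and 9.28, then 3.48 and 0 in LyzMCreEgr2flfl. At Rxra +1.2 kb PPARg was 2.74 and 0 in basal and 0 in both libraries at 24 hours in Egr2flfl, and 0 in both, then 0.7 and 16.8 in LyzMCreEgr2flfl. That difference ran the other way (2.46 ± 1.21, adjusted p = 0.41) and rested on 1 library (0.77 without LyzMCreEgr2flfl 24-hour replicate 2).

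The other sites had low H3K27ac. Rxra +17.5 kb had 16.2 and 6.11 in basal and 21.1 and 17.98 at 24 hours in Egr2flfl, and 18.1 and 8.41, then 5.19 and 11.6 in LyzMCreEgr2flfl (-1.21 at 24 hours, adjusted p = 0.107). Ppargc1b -1.4 kb had 20.4 and 12.2, then 21.1 and 16.7, and 20.1 and 13.4, then 5.19 and 16.2 (-0.94, 0.175). Nr1h3 -47.4 kb held 3.41 and 2.72, then 10.1 and 4.50, and 6.02 and 1.12, then 0 and 3.48 (-1.88, 0.085). At 24 hours the LyzMCreEgr2flfl libraries lay below the Egr2flfl libraries at these 3 sites. The fifth site, Rxra +1.2 kb, differed by -0.57 (adjusted p = 0.44). None of the 5 sites was called for H3K27ac, against 23.2% of all 4677 rows lower and 1.41% higher (median -0.50), nor for H3K4me2 (background 8.94% lower), PU1 (9.36%), CEBPb (8.25%), STAT6 (0.0214%) or PPARg (0.0%, with 670 sites at an unadjusted p under 0.05 by limma). For H3K27ac 2 of the 5 had an unadjusted p under 0.05, edgeR and DESeq2 called 0, and 2 were called without LyzMCreEgr2flfl 24-hour replicate 2. For H3K4me2 and CEBPb 1 each, and for PU1, STAT6 and PPARg 0, had an unadjusted p under 0.05.

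H3K4me2 at Rxra +1.2 kb was 87.4 and 34.6 in basal and 54.8 and 50.2 at 24 hours in Egr2flfl, and 70.5 and 61.3, then 93.1 and 85.4 in LyzMCreEgr2flfl, with no overlap between genotypes at 24 hours. The difference of 0.75 ± 0.32 missed the threshold (adjusted p = 0.12, limma). It passed with replicate number as a block shared by both genotypes (0.018, against 1.09% of rows higher and 10.9% lower), which was chosen after the data were seen and which the H3K4me2 libraries allowed. H3K4me2 at Pparg -17.1 kb went from 81.1 and 79.2 to 35.4 and 73.3 in Egr2flfl and from 88.1 and 95.5 to 55.6 and 85.4 in LyzMCreEgr2flfl. Its IL-4 change in Egr2flfl was -0.64 (adjusted p = 0.24; background 8.06% higher and 0.15% lower), and 0.039 with the block (9.41% and 1.28%).

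Start regions whose H3K27ac ran most like the members' over the 20 strain libraries were taken from 7328 regions of other genes, by Pearson r of log2 values, as a description of libraries that share depth and enrichment. Nr1h3 ran with Sash1 (r = 0.98), Tnrc6a (0.979) and Dhodh (0.976), and Pparg with Scimp (0.825), Atp6v0d2 (0.807) and Sipa1l3 (0.806). Ppargc1b ran with Glrx (0.801), Mpv17l2 (0.789) and Usp28 (0.787), and Rxra, whose start has little H3K27ac, with Ptpdc1 (0.757), Ugt1a6a (0.718) and Rassf3 (0.714).

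Of 54 other genes of the pathway, 32 had a matched start region. H3K27ac fell at 13 of the 32 and rose at 0 after 24 hours (median change -0.48), against 19.1% and 2.45% of 8006 start regions (median -0.31). With median-ratio scaling 6 of the 32 fell (Nr1d1, Nr1d2, Pprc1, Ep300, Tbl1xr1 and Cpt1a) and 2 rose (Fabp4 and Abcg1), against 6.52% and 8.43% of start regions. The values that follow are those before scaling. Among receptors 4 of 6 fell: Ppard (-0.70, limma adjusted p = 0.015), the fatty acid receptor of the same family, Nr1h2 (-0.58, 0.029), the second liver X receptor, and the circadian repressors Nr1d1 (-1.38, 1.3e-05) and Nr1d2 (-0.91, 0.0073). Coactivators fell at 2 of 9, Pprc1 (-0.73, 0.0045) and Ep300 (-0.65, 0.0080), and corepressors at 2 of 4, Tbl1x (-0.71, 0.011) and Tbl1xr1 (-1.04, 8.6e-05). Both measured ligand supply genes fell, Cyp27a1 (-0.91, 0.012), a sterol hydroxylase, and Rdh10 (-0.58, 0.035), a retinol dehydrogenase. Among 11 targets 3 fell, Plin2 (-0.50, 0.032), Cpt1a (-0.71, 0.0067) and Abca1 (-0.66, 0.045). Pol II rose at 3 of the 32 starts, all targets, and fell at 1, Nr1d1 (-0.76, 0.012), against 2.96% and 2.55% of start regions. With scaling 3 rose and 2 fell, Tbl1xr1 being added. The targets that rose were Fabp4 (0.91, adjusted p = 0.016), a fatty acid carrier, Abcg1 (0.72, 0.0009), a cholesterol exporter, and Scd2 (0.97, 0.0096), a desaturase.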

How the data were processed

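ChIP-seq of histone marks, Pol II and 5 transcription factors was measured in 267 samples in 138 groups by target, strain or Egr2 genotype, and time of IL-4, as the labels give them, and 155 libraries had values in tables. The authors mapped reads with Bowtie2 to strain-specific genomes, moved the positions onto mm10 and counted tags with HOMER. The deposited signal values are tags per region scaled by the authors to 10000000 of each library total, so they carry the share of tags inside regions, which differed between conditions. Peak lists are the authors' HOMER peaks per group, kept by IDR per the methods, with a deposited score per peak that was used here to rank peaks within a list only, and a deposited count of the peak that ordered ties. Of the 54 lists, 18 (all of PPARg and those of EGR2 outside C57) hold a score that is no IDR score. The tables held 4 value columns that matched no sample and were not used. Replicate comparisons numbered 99 (chi-square per degree of freedom 1.41 to 17.4, with 0 identical).

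Tests of all rows used limma 3.58.1 under R 4.3.3 (lmFit, then eBayes with a mean trend) after log2 transformation of normalized tags plus 1, a scale that understates changes of low rows, with Benjamini-Hochberg adjustment over all rows of the fit, a threshold of 0.05 and no filter. Adjusted p-values in the report are limma's unless another tool is named. The mean over strains is that of the 5 within-strain differences in 29462 regions matched within 500 bp. Alternatives were edgeR 4.0.16 and DESeq2 1.42.0 on whole reads recovered from the signal, median-ratio scaling, a replicate block, pseudocounts, filters, match distances and leaving out libraries or strains. Same-numbered samples deviated together in the strain tables of H3K27ac (10 of 10 correlations, 0.261 to 0.492) and Pol II (13 of 13, 0.118 to 0.469), as did H3K4me2 in the Egr2 genotypes (4 of 4, 0.115 to 0.159, and 0.141 and 0.169 between genotypes), and these numbers, given by the labels, were taken to pair the samples. In the other tables they were not. The calls reported first come from fits without a block and so do not use this pairing. Results with the block are given as alternatives. Tests were checked on simulated data. For H3K27ac, limma recovered 99.02% of rows given a log2 change of 1 in the fit over 5 strains. In the C57 time course, 24 hours against basal, it recovered 11.11% of such rows and 87.13% of those given a change of 2. Counts of 0 in the time course thus do not show that changes of that size were absent. Peaks sharing 1 bp or more counted as overlapping. Genes are from GENCODE vM21 and sequence from GRCm38. Scripts ran in Python 3.11.15 with scipy 1.17.1, numpy 2.4.6 and pandas 2.3.3.

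The 4 genes, the pathway lists and the tests were chosen with earlier results of these data known. Of the pathway lists, 1 gene is not reported here. Named regions were each gene's start, its highest H3K27ac region beyond 1 kb, up to 2 higher and 2 lower called regions, its top EGR2 site, its site with the largest genotype difference, the top peak of each factor, and every row behind a count of 5 or fewer. Likeness compared start regions with a mean of 16 or more normalized tags. Other rows, among them those named with their values in the time course and the Pparg -15.5 kb window, were named after their values were seen.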

Additional observations from a re-analysis of the deposited data

Results flagged for a closer look

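Pol II at Rxra +14.5 kb in the 4 basal C57 libraries was 5.62, 14.3, 15.2 and 16.1 normalized tags. The lowest library stood apart, its gap to the next being 0.8346 of the whole range. Of 41 member rows with 4 such libraries 3 had a sample this far out, where chance gives about 1 in 20 groups.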

How the results depend on the processing

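Depth and 2 libraries a group limit these results, as does the scaling to library totals where the share of tags in regions differs between conditions. Counts of called members under other settings than leaving out a library stayed within 1.5 times the reported count in 307 of 370 cases. Changes of named regions kept direction and side of the threshold in 296 of 359, lost the call in 37, gained it in 22 and reversed in 4. With single libraries or strains left out, 454 of 510 counts stayed within 1.5 times and 468 of 574 named changes kept direction and call. The cause of the changes below was not tested.

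The replicate block gave 16 calls for H3K27ac over the strains (reported 9) and 10 for Pol II (2). Within strains it gave 16 in C57, 17 in NOD, 3 in PWK and 4 in SPRET (reported 0 in each). In the time course, whose numbers were not taken to pair the samples, it gave 20, 7 and 8 for H3K27ac at 1, 6 and 24 h (reported 8, 1 and 0) and 2 for Pol II at 24 h (0). In the Egr2 genotypes it gave 1 for H3K27ac after IL-4 in Egr2flfl, 1 in LyzMCreEgr2flfl and 1 for H3K4me2 in Egr2flfl (0 in each). A block within a genotype was not run between genotypes, since it cannot be separated from them. A replicate block shared by both, chosen after seeing the data, gave 1 for H3K4me2 at 24 h (0) and 0 for the other 5 targets. Over the strains, the replicate block turned the Rxra start Pol II change to -0.0375.

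Median-ratio scaling left 1 call for H3K4me2 (reported 19), 1 for H3K4me3 (3), 5 for Pol II over the strains (2), 1, 5 and 2 in the H3K27ac time course, and 1 in BALB (0). It reversed EGR2 at the Rxra start (-0.124) and Nr1h3 +6.0 kb (-0.354) at 24 h, and PPARg by genotype at Pparg -17.1 kb (0.247). In these tables of EGR2 sites the scaling also removes a change that most sites share. DESeq2 called 4 for Pol II over the strains, 15, 4 and 3 in the H3K27ac time course, 2 and 1 in that of Pol II at 6 and 24 h, 2 in C57 and 1 in SPRET. For Pol II over the strains, edgeR called 1, and matching within 200 bp left 1. In SPRET edgeR and the filter each called 1.

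A fold of 2 took 8 H3K27ac rows in C57 (reported 5), 3 in BALB (1), 9 in NOD (4), 5 in PWK (3) and 5 in SPRET (2), and for Pol II 1 in C57 (0), 10 in BALB (4), 7 in NOD (3), 4 in PWK (2) and 4 in SPRET (1). A pseudocount of 5 left 1 H3K27ac row in PWK, 1 in SPRET and 0 for Pol II in SPRET. Of C57 peaks at 24 h without a basal peak, the upper part of each list by score held 10 for PPARg (reported 22), 7 for EGR2 (14), 4 for CEBPb (10) and 2 for PU1 (8). A window of 25 kb gave 14 for PPARg and 4 for PU1, and one of 100 kb gave 38 for PPARg, 25 for EGR2, 21 for STAT6 (10), 18 for PU1 and 16 for CEBPb. Centres within 50 bp in place of overlap gave 18 for STAT6.

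Leaving out 1 library, calls over the strains ranged from 7 to 11 for H3K27ac, 15 to 21 for H3K4me2, 2 to 4 for H3K4me3 (1 without C57) and 0 to 4 for Pol II, where 0 came without NOD 24 h replicate 1, NOD or PWK, 1 without BALB or SPRET, and 4 without BALB basal replicate 1 or C57 24 h replicate 2. In the time course H3K27ac calls ranged from 0 to 20 at 1 h, 0 to 6 at 6 h and 0 to 6 at 24 h, and Pol II calls from 0 to 3 at 6 h and 0 to 2 at 24 h. Within strains calls ranged from 0 to 3 in BALB (3 without 24 h replicate 1), 0 to 1 in NOD (1 without basal replicate 2), 0 to 1 in PWK (1 without either basal library) and 0 to 0 in C57 and SPRET. Fold rule rows of H3K27ac ranged from 1 to 9 in BALB (9 without 24 h replicate 1), 4 to 9 in C57 (9 without 24 h replicate 1), 3 to 6 in NOD, 2 to 5 in PWK (5 without either 24 h library) and 1 to 4 in SPRET (4 without basal replicate 2). Those of Pol II ranged from 4 to 9 in BALB (9 without basal replicate 2 or 24 h replicate 1), 0 to 1 in C57, 4 to 5 in NOD, 2 to 4 in PWK (4 without basal or 24 h replicate 1) and 1 to 3 in SPRET (3 without basal replicate 2). By genotype, H3K27ac calls at 24 h ranged from 0 to 2 (2 without LyzMCreEgr2flfl 24 h replicate 2), those after IL-4 in LyzMCreEgr2flfl from 0 to 1 (1 without its basal replicate 2) and those of H3K4me2 after IL-4 in Egr2flfl from 0 to 1 (1 without its 24 h replicate 2). The other genotype contrasts, EGR2 and the difference between strains stayed at 0 to 0. EGR2 at the Rxra start was 1.077 without 24 h replicate 2 and turned to -0.0264 without 24 h replicate 1.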
